A study of Rattus norvegicus with 16 samples.

Results

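The 9 genes Hsph1, Hspa8, Hspa4, Hsp90aa1, Hspb1, Hspd1, Dnajb1, Bag3 and Zfand2a encode cytosolic and mitochondrial chaperones, their co-chaperones and a stress-induced zinc finger protein. They were chosen by name, with their levels in the same knockdown libraries already known, so every difference between the groups is given for them as a description and without a p-value. All 9 were found among the 32883 genes of the deposited table, and all 9 passed the filter on low values. The libraries came from primary rat aortic vascular smooth muscle cells of wild-type genotype, grown in medium with 20% fetal bovine serum. For 48 h the cells carried an adenovirus, either one with a short hairpin RNA against Nat10 (knockdown, 3 libraries) or a control adenovirus (control, 3 libraries), so both groups carried a virus. Each group also had 3 libraries of RNA pulled down with an ac4C antibody; ac4C is N4-acetylcytidine, a base that NAT10 makes by acetylating cytidine in RNA. In addition, NAT10-bound RNA was sequenced from 3 further libraries of the same cell type (NAT10 RIP), for which the labels name no virus. The labels also give a single non-IP control library of total RNA. The replicates are described as biological repeats, with no word on whether each was a different animal, and the p-values thus cover the spread among these samples, possibly a technical one.

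Chaperones of the HSP70 family hold unfolded stretches of other proteins and release them in a cycle driven by ATP. J-domain proteins deliver the unfolded proteins and speed up ATP hydrolysis, and the HSP110 and BAG proteins reopen the nucleotide pocket. In stressed mammalian cells the transcription factor HSF1 leaves its chaperone partners, forms trimers and binds heat shock elements, inverted repeats of GAA in the promoters of these genes. Polyubiquitin genes, which supply ubiquitin for proteasomal degradation, are induced in the same response.

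The promoters of 5 genes are shown because they include the pair with the largest differences between the groups (Hsph1 and Zfand2a), both other members in which 3 units of the heat shock element follow each other (Hspa8 and Hspd1), and a member with 2 units only (Dnajb1). They are RefSeq sequences of build GRCr8, from 250 bases before to 50 bases after the start site, 5′ to 3′ in the direction of the gene. Capitals mark elements of 2 or more units, in which GAA and TTC alternate with 2 bases of any kind between them. Hsph1 lies at chr12:10427118-10427417 (plus strand), Zfand2a at chr12:20275200-20275499 (plus strand), Hspa8 at chr8:50080264-50080563 (plus strand), Hspd1 at chr9:64083988-64084287 (minus strand) and Dnajb1 at chr19:41431092-41431391 (minus strand).
Hsph1: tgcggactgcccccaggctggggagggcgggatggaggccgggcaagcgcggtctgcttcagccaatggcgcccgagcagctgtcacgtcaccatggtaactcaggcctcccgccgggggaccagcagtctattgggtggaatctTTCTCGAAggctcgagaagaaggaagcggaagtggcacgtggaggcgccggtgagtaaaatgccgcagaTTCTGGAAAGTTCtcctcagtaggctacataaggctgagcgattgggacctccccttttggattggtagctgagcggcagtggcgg
Zfand2a: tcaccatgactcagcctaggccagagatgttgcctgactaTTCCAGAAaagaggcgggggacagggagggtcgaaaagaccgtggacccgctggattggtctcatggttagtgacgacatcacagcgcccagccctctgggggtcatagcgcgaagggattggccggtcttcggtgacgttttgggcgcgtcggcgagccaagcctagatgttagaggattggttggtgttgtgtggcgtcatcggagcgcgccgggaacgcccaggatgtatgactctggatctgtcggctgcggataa
Hspa8: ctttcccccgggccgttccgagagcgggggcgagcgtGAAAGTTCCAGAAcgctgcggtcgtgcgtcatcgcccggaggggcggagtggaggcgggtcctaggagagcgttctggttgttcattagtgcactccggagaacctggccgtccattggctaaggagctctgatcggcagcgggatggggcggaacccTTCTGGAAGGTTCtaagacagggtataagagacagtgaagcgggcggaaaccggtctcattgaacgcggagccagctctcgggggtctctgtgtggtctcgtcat
Hspd1: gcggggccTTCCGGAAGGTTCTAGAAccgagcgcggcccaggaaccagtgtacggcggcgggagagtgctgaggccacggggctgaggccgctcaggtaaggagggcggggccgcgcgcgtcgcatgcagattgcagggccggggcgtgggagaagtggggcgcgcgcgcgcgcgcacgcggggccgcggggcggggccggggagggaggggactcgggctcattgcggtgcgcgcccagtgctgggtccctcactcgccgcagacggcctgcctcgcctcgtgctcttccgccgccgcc
Dnajb1: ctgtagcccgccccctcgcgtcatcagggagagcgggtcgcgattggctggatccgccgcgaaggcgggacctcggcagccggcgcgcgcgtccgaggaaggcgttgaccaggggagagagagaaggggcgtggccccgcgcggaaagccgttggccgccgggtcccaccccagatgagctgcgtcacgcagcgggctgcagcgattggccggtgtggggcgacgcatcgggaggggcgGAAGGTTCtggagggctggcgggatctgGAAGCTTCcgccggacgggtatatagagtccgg

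RefSeq promoters were matched for 8 of the 9 members, all but Hsp90aa1. A run of 3 units was present in 3 of the 8, against 267 of all 33469 promoters of the same length (0.798%). In Hsph1 it lay at -36 to -24 from the start site. Hspa8 had one at -213 to -201 and another at -55 to -43, and Hspd1 had overlapping runs at -242 to -230 and -237 to -225. A run of 2 units, which every 3-unit run also contains, was present in 7 of the 8 members and in 5305 of all promoters (15.9%); it was the longest run in Hspb1, Dnajb1, Bag3 and Zfand2a. No such run was in the Hspa4 window. Among the 73 other chaperone and ubiquitin genes with a promoter entry, 5 held a 3-unit run (6.85%), namely Cct4, Chordc1, Dnaja1, Hspe1 and Serpinh1. The windows of Hspa1a and Ubb held no run of 2 or 3 units. Of the 4 genes whose longest run had 2 units, Zfand2a had groups without overlap, while the groups of Hspb1, Dnajb1 and Bag3 overlapped. Of the 3 genes with a run of 3 units, Hsph1 had groups without overlap, while those of Hspa8 and Hspd1 overlapped. A link between elements and levels was not tested. A match is a run of letters and was not tested as a binding site. Only exact units spaced by 2 bases were searched, and only within these windows. A window without a run may thus hold imperfect elements, and the gene may have elements outside it.

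**Figure D1:**
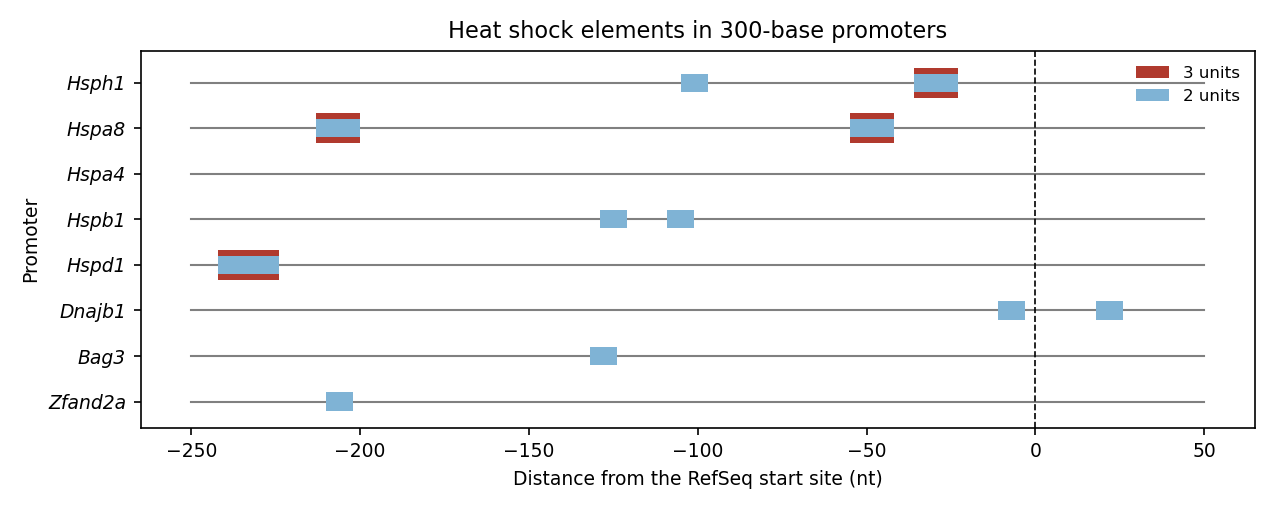
Position of heat shock elements in the 8 member promoters, in nt from the RefSeq start site (dashed line); wide red bars are runs of 3 units and narrow blue bars runs of 2. Runs of 3 units stand in Hsph1, Hspa8 and Hspd1, close to the start site at -36 in Hsph1 and -55 in Hspa8, and Hspa4 has none of either kind.

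Levels are given as FPKM, here fragments per kilobase divided by a scaling factor for each library. Nat10 itself had 4.38, 3.68 and 4.58 FPKM in knockdown libraries 1, 2 and 3, against 7.69, 9.22 and 9.95 FPKM in control libraries 1, 2 and 3. All knockdown values lay below all control values, the direction the labels give. The log2 change of -0.93 (SE 0.19) had an adjusted p of 0.227 (limma) and did not pass the threshold of 0.05; over the alternatives this p ran between 0.0399 with library quality weights and 0.797 without control 2. The libraries held 6417941, 7106004 and 7468528 fragments in knockdown 1 to 3 and 12065991, 8171176 and 8623541 in control 1 to 3. Controls 2 and 3 were much closer to each other than any other pair of libraries, as their chi-square over genes had a median of 0.76, where sampling alone gives 0.455 and the other pairs gave 3.64 to 12.3. The summed FPKM of 8 smooth muscle markers was 1691, 917 and 3716 in knockdown 1 to 3, against 7060, 5012 and 5233 in control 1 to 3. Endothelial markers (5 of 6 measured) summed to at most 1.00 FPKM in knockdown libraries and 0.724 FPKM in control libraries. Leukocyte markers summed to 5.03 to 11.1 FPKM in knockdown libraries and 3.54 to 5.36 FPKM in control libraries, with Cd3e at 0 in all of them. Adventitial fibroblast markers summed to 193 to 264 FPKM in knockdown libraries and 295 to 318 FPKM in control libraries, and Schwann and neural markers to 0.655 to 2.81 and 1.07 to 4.69 FPKM. In bulk samples fewer cells of a type and less RNA per cell cannot be told apart.

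Of the genes that serve the HSP70 cycle, Hsph1 (ENSRNOG00000000902), an HSP110 protein that exchanges the nucleotide of HSP70 and helps to dissolve aggregates, was the clearest. It had 203, 85.6 and 273 FPKM in knockdown 1 to 3, against 52.8, 54.3 and 63.5 FPKM in control 1 to 3. Every knockdown library lay above every control library, but knockdown 2 was far closer to the controls than the other knockdown libraries were. Mean levels were 187 ± 94.7 FPKM in knockdown and 56.9 ± 5.79 FPKM in control libraries (SD, n = 3 each), with a ratio of 3.29, and the log2 change was 1.55 (SE 0.41). Hspa4 (ENSRNOG00000016596), a second HSP110 protein, had 107, 91.8 and 112 FPKM in knockdown 1 to 3, against 90.5, 80.7 and 80.3 FPKM in control 1 to 3. The groups did not overlap here either, yet the lowest knockdown and the highest control library almost touched, and the log2 change was 0.30 (SE 0.16).

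Hspa8 (ENSRNOG00000034066) encodes HSC70, the constitutive HSP70 of the cytosol, and had the highest mean of the 9 in both groups. It had 360, 280 and 702 FPKM in knockdown 1 to 3, against 307, 284 and 302 FPKM in control 1 to 3. Knockdown 2 lay below all controls, and knockdown 3 stood far above the other 5 libraries. The log2 change of 0.47 (SE 0.35) was 0.09 without knockdown 3 and 0.76 without knockdown 2. Hspa1b, the stress-inducible HSP70 and not a member, had 25.7, 8.38 and 67.6 FPKM in knockdown 1 to 3, against 8.92, 9.43 and 12.1 FPKM in control 1 to 3. Its knockdown libraries stood in the same order as those of Hspa8, with knockdown 2 below all controls (log2 change 1.22, SE 0.65, adjusted p 0.484 by limma). Without knockdown 3 the Hspa1b log2 change was 0.51, and without knockdown 2 it was 1.95. HSP70 and ubiquitin genes have near-identical copies, and the authors' treatment of reads shared between copies is unknown (not given in the sources used here), so levels of Hspa1b, Hspa8 and the ubiquitin genes are uncertain.

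The co-chaperones Dnajb1 and Bag3 had their knockdown libraries in the same order as Hspa8. Dnajb1 (ENSRNOG00000021824), the J-domain protein HSP40, had 33.97, 24.5 and 69.6 FPKM in knockdown 1 to 3, against 25.3, 22.8 and 24.9 FPKM in control 1 to 3. Bag3 (ENSRNOG00000020298), which joins HSP70 and small heat shock proteins to selective autophagy, had 119, 61.9 and 145 FPKM in knockdown 1 to 3, against 67.6, 63.4 and 70.6 FPKM in control 1 to 3. In both genes knockdown 1 and 3 lay above all controls and knockdown 2 lay among or below them. The log2 change was 0.65 (SE 0.36) for Dnajb1, which was 0.24 without knockdown 3. For Bag3 it was 0.60 (SE 0.31), which was 0.35 without knockdown 3 and 0.96 without knockdown 2.

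Hsp90aa1 (ENSRNOG00000059714), the stress-inducible cytosolic HSP90 that matures kinases and steroid receptors, varied most between libraries. It had 1.88, 0.932 and 63.8 FPKM in knockdown 1 to 3, against 19.8, 12.2 and 17.2 FPKM in control 1 to 3. Knockdown 1 and 2 were below all controls and knockdown 3 above them, and the highest library held 68.4 times the level of the lowest. Behind these values stood 38, 21 and 1214 fragments in knockdown 1 to 3 and 627, 262 and 394 fragments in control 1 to 3. The direction depended on the summary, since the log2 change was -1.26 (SE 1.22) while the ratio of mean FPKM was 1.36; the log2 change was -2.86 without knockdown 3, -0.61 without knockdown 1 and -0.32 without knockdown 2. The constitutive Hsp90ab1 had 467, 372 and 720 FPKM in knockdown 1 to 3, against 442, 421 and 449 FPKM in control 1 to 3, and its knockdown 1 value lay above all controls.

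Hspb1 (ENSRNOG00000023546), the small heat shock protein HSP27, which holds unfolded proteins without ATP and acts on actin filaments, had 327, 299 and 560 FPKM in knockdown 1 to 3, against 364, 234 and 228 FPKM in control 1 to 3. Control 1 lay above knockdown 1 and 2, so the groups overlapped, and the log2 change was 0.50 (SE 0.32). Hspd1 (ENSRNOG00000014525), the mitochondrial chaperonin HSP60, had 81.2, 54.4 and 131 FPKM in knockdown 1 to 3, against 53.4, 65.4 and 66.1 FPKM in control 1 to 3. Knockdown 2 lay within the control range, and the log2 change was 0.44 (SE 0.32). Without knockdown 3 the log2 change was 0.22 for Hspb1 and 0.11 for Hspd1, and without knockdown 2 it was 0.74 for Hspd1.

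Zfand2a (ENSRNOG00000032917), an AN1 zinc finger protein that binds the proteasome and is induced by arsenite and heat, had the largest log2 change of the 9 genes. It had 172, 58.3 and 187 FPKM in knockdown 1 to 3, against 31.4, 29.0 and 32.2 FPKM in control 1 to 3. All knockdown libraries lay above all controls, with knockdown 2 the lowest of them. Mean levels were 139 ± 70.2 FPKM in knockdown and 30.9 ± 1.67 FPKM in control libraries (SD, n = 3 each), with a ratio of 4.50, and the log2 change was 1.96 (SE 0.43). Of the 13450 genes tested, 17 had a larger positive log2 change than Zfand2a and 60 a larger one than Hsph1, while 863 or more had a larger one than each of the other 7 members.

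Ubb, a polyubiquitin gene that is not among the 9 and that the deposited table lists as a pseudogene, had 425, 658 and 484 FPKM in knockdown 1 to 3, against 384, 368 and 380 FPKM in control 1 to 3. Its groups did not overlap, and knockdown 2, the lowest knockdown library for all 9 members, was the highest for Ubb (log2 change 0.44, SE 0.23, adjusted p 0.482 by limma). Without knockdown 2 the Ubb log2 change was 0.26.

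**Figure D2:**
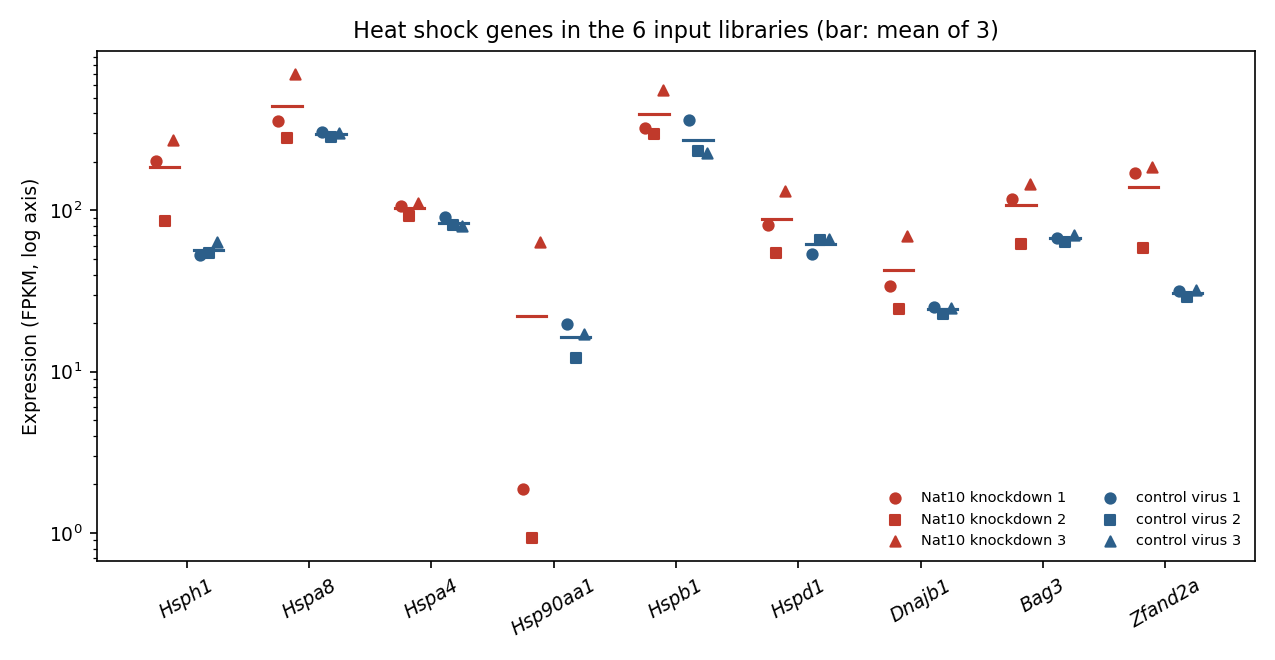
Expression of the 9 genes in FPKM on a log axis in the 3 Nat10 knockdown libraries (red, left) and the 3 control libraries (blue, right); circles, squares and triangles are libraries 1, 2 and 3 and bars are means of 3. Knockdown 3 is the highest library for each gene, and Hsp90aa1 spans 0.932 to 63.8 FPKM in the knockdown libraries.

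Across the 9 genes the spread lay mostly within the knockdown group. Knockdown 3 was the highest of the 6 libraries for all 9 genes, against 2351 of the 13450 tested genes (17.5%). The order knockdown 2, knockdown 1, knockdown 3 from low to high held for all 9, against 3146 tested genes (23.4%). The median of the 9 genes relative to the control mean, on the log2(FPKM + 1) scale, was 0.40, 0.01 and 1.24 in knockdown 1 to 3, against 0.04, -0.08 and 0.06 in control 1 to 3. The SD was 10.2% to 162% of the mean in knockdown libraries and 4.09% to 28.1% in control libraries. Library quality weights, which fall as a library strays from its group over all tested genes, were 1.35, 0.235 and 0.416 in knockdown 1 to 3. In control 1 to 3 they were 0.559, 3.8 and 3.57. A wide spread of knockdown 2 and 3 was thus not particular to the 9 genes. Groups without overlap, with knockdown higher, were seen for 3 of the 9 (Hsph1, Hspa4 and Zfand2a), against 1295 tested genes (9.63%), and for none with knockdown lower, against 1471 tested genes (10.9%). The same order of the knockdown libraries, 2 lowest and 3 highest, was seen in the summed smooth muscle markers, to which Tagln and Acta2 contributed most. Singly, the order held for Acta2, Tagln, Tpm2 and Lmod1 but not for Myh11, Cnn1, Myl9 and Smtn. The part of these markers in the result was not tested.

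The median log2 change of the 9 genes was 0.50, with 8 positive and 1 negative (Hsp90aa1), while the median of all tested genes was -0.01. This median was 0.24 without knockdown 3 and 0.76 without knockdown 2. Over all genes limma called 0 of 13450 at an adjusted p under 0.05 (0%), and 335 with library quality weights. An unadjusted p under 0.05 was reached by 744 genes with higher knockdown values (5.53%) and by 935 with lower ones (6.95%). The exact permutation test of 3 against 3 libraries cannot give a two-sided p below 0.1. Ordered by their control means the members ran from Hspa8 (297.5 ± 12.2 FPKM) and Hspb1 (275 ± 77.2) through Hspa4 (83.8 ± 5.76), Bag3 (67.2 ± 3.62), Hspd1 (61.6 ± 7.17), Hsph1, Zfand2a and Dnajb1 (24.3 ± 1.36) to Hsp90aa1 (16.4 ± 3.87, SD, n = 3). The control ranges of Hspa8 and Hspb1 overlapped, as did those of Bag3 with Hspd1 and of Hspd1 with Hsph1; the other neighbours were separate. By their knockdown means Hspb1 and Hsph1 were the only neighbours whose knockdown ranges were separate.

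**Figure D3:**
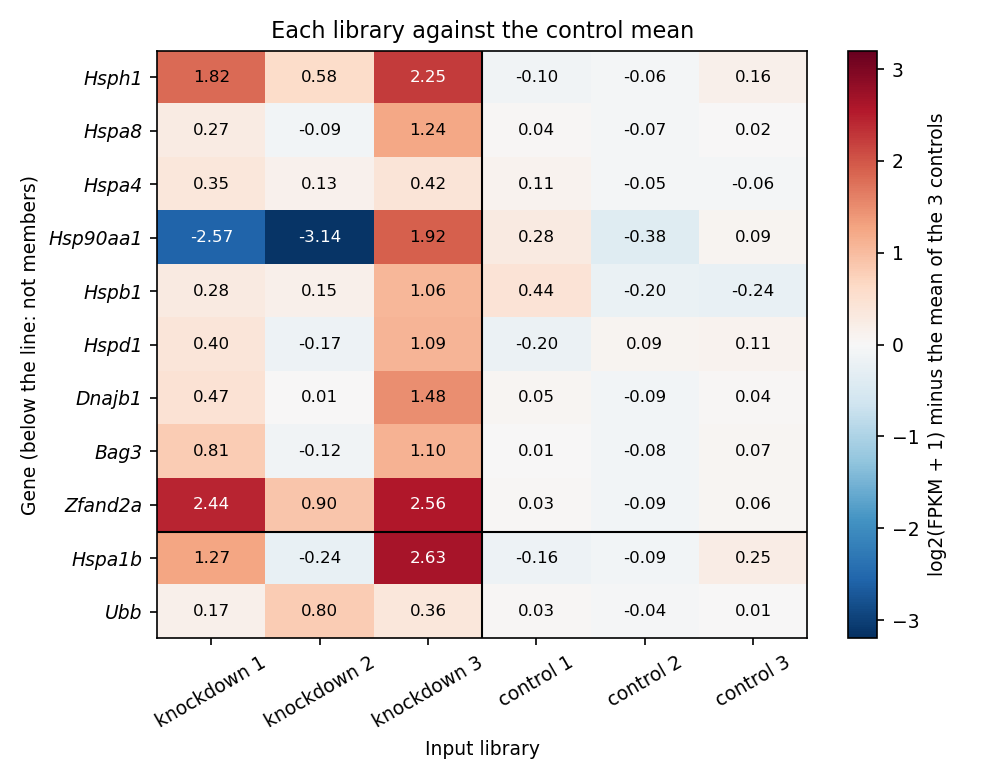
Log2(FPKM + 1) of each gene in each input library minus the mean of the 3 controls; red is above and blue below the control mean, and Hspa1b and Ubb below the line are not members. The column of knockdown 3 is positive for all 9 members and knockdown 2 is near 0 for most, while Ubb is highest in knockdown 2 (0.80).

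The 93 other chaperone, heat shock factor and ubiquitin genes lay on both sides of 0. The 91 of them that passed the filter had 49 positive and 42 negative log2 changes with a median of 0.04, and 0 were called in either direction at an adjusted p under 0.05 (limma), and an unadjusted p under 0.05 was reached by 6 that were higher and 5 that were lower. The order of the knockdown libraries seen in the members held for 28 of the 91. Hsf1, the master regulator, had 22.0, 36.0 and 27.0 FPKM in knockdown 1 to 3, against 29.5, 28.1 and 26.9 FPKM in control 1 to 3, which overlapped (log2 change -0.02, SE 0.20). Of 4 heat shock factors and their binding protein, 1 was positive (Hsf2, 0.23) and 3 negative, the lowest Hsf4 with -0.62. Of 6 other cytosolic HSP70 and HSP110 genes, 2 were positive, and they ran from -0.44 for Hspa2 to 0.86 for Hspa4l, whose levels stayed under 3 FPKM.

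Of the 13 genes of HSP90 and its co-chaperones, 9 were positive. Stip1, the adaptor between HSP70 and HSP90, had 164, 152 and 191 FPKM in knockdown 1 to 3, against 123, 106 and 104 FPKM in control 1 to 3. The groups did not overlap, and the log2 change was 0.60 (adjusted p 0.304 by limma). Chordc1, an HSP90 co-chaperone that also held a 3-unit element, had a log2 change of 0.56, while the kinase adaptor Cdc37 had -0.47 and the immunophilin Fkbp5 -0.44. Of 12 J-domain genes, 4 were positive and 8 negative; Dnaja4 (0.47) and Dnajc5 (0.32) were highest, Dnajb5 had -0.55 and Dnajb12, of the ER membrane, had -1.12. Dnajb12 had 8.73, 8.31 and 10.4 FPKM in knockdown 1 to 3, against 19.3, 22.5 and 21.2 FPKM in control 1 to 3, a separation of the groups with an adjusted p of 0.186 (limma). Of 7 measured nucleotide exchange factors and HSP70 partners, 5 were positive, with St13 at 0.50, Bag1 at 0.22, Bag4 at -0.13 and Bag2 at -0.22; Bag5 was listed at 0.

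Of 5 measured small heat shock proteins, 1 was positive (Hspb8, the partner of Bag3, 0.43) and 4 negative, down to -0.67 for Hspb6, while Hspb3 was listed at 0. Their median stood at -0.96 in knockdown 2 and near 0.2 in knockdown 1 (0.21) and knockdown 3 (0.18). Of 9 mitochondrial chaperones and proteases, 4 were positive. Hspe1, the HSP10 lid of the chaperonin that Hspd1 forms, had 157, 169 and 254 FPKM in knockdown 1 to 3, against 115, 120 and 110 FPKM in control 1 to 3. Its groups did not overlap (log2 change 0.71, adjusted p 0.318 by limma), unlike those of Hspd1; Grpel1 had 0.39, Lonp1 -0.26 and Hscb -0.29. Of 8 subunits of the cytosolic chaperonin CCT, 6 were positive (Cct5 0.32 and Cct7 0.29 highest, Cct2 -0.08 and Cct8 -0.09 lowest). Of 7 AN1 zinc finger and p97 genes, 4 were positive, from Sqstm1 (0.42) and Zfand3 (0.27) to Zfand6 (-0.15) and Zfand1 (-0.16).

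Chaperones of the endoplasmic reticulum, most of which answer to a separate stress response, stood as a list highest in another library than the members. Serpinh1 in this list held a 3-unit heat shock element. Of 13 such genes, 8 were positive, and knockdown 2 was the highest of the 6 libraries for 10 and knockdown 3 for 0. Over all tested genes knockdown 2 was the highest for 3542 (26.3%), more than the 2351 that were highest in knockdown 3. The median of the 13 genes relative to the control mean was -0.35, 0.79 and -0.16 in knockdown 1 to 3. Hspa5 (BiP), the HSP70 of the endoplasmic reticulum, had 239, 2768 and 237 FPKM in knockdown 1 to 3, against 440, 305 and 307 FPKM in control 1 to 3. Knockdown 2 alone was above the controls, and the log2 change of 0.64 had an SE of 0.92 (adjusted p 0.801 by limma). Sdf2l1 had 0.85, with 44.3 FPKM in knockdown 2, while Hyou1 had -0.39 and Canx -0.32.

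**Figure D4:**
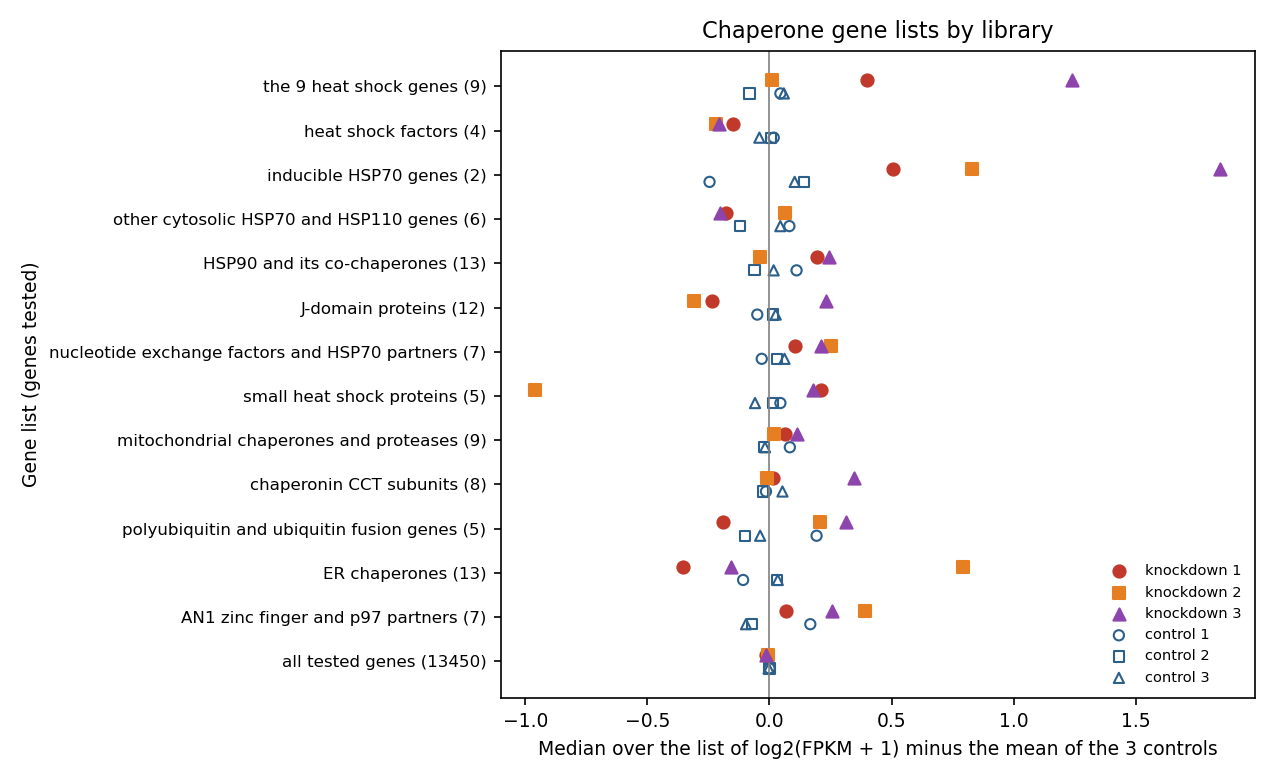
Median over each gene list of log2(FPKM + 1) minus the mean of the 3 controls, per library; filled symbols are the 3 knockdown and open symbols the 3 control libraries, and the number of genes tested stands in brackets. The 9 heat shock genes are highest in knockdown 3 (1.24), ER chaperones in knockdown 2 (0.79), and all tested genes stay near 0.

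Profiles over the 6 input libraries were compared by the root mean square distance of centred log2(FPKM + 1), among 6732 genes with a mean of at least 10 FPKM. Hsph1 and Zfand2a were each other's nearest gene (0.24), and so were Hspa8 and Dnajb1 (0.10). After these came RF00016 (0.28) and AABR07008016.1 (0.35) for Hsph1, and RF00016 (0.48) and Nabp1 (0.50) for Zfand2a. Atxn7 was among the nearest to both Hspa8 (0.14) and Hspd1 (0.10), where Nol9 (0.09) and Slc41a2 (0.10) also stood. Nearest to Hspa4 were Smg1 (0.04), Psmd5 (0.05) and Camsap1 (0.05). Hspb1 lay closest to Abcc4 (0.11), Akr1b1 (0.12) and AABR07053516.2 (0.13), and Bag3 to Ubtd1 (0.11), Rnf217 (0.11) and St6galnac4 (0.12). Hsp90aa1 had no close match, its nearest being Igfbp4 (0.86), S1pr3 (0.93) and Trabd2b (0.96). Genes with small changes have short distances to many others, so the measure ranks neighbours within 1 member only.

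Listed ac4C peaks were present on 7 of the 9 genes, and on none for Dnajb1 and Zfand2a. The authors gave 1 p per peak and did not state whether it was adjusted. Control lists 1 and 2 held 29998 and 29593 peaks, of which 26881 and 27673 carried a single shared p (0.045 and 0.046), while control list 3 held 3479 and knockdown lists 1 to 3 held 3111, 2658 and 2592. List lengths therefore differ, and peaks at the shared p are named as such. A peak in all 3 knockdown lists was found for 2 members (Hspa4 and Hsp90aa1), against 635 of the 13450 tested genes (4.72%). A peak in all 3 control lists was found for 1 member (Hsp90aa1), against 991 tested genes (7.37%), or 577 (4.29%) without peaks at the shared p. The single lists 1 to 3 held 3, 2 and 6 members in knockdown and 4, 3 and 4 in control. In all, these lists named 2638, 2173 and 2225 genes in knockdown and 23263, 23209 and 2848 in control. Member counts from control lists 1 and 2 are thus not comparable with those from the other lists. The count in all control lists was 3 without control list 3 and 2 without control list 2, and without knockdown list 2 the count in all knockdown lists was 3.

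Hsp90aa1 was the only member with a peak in all 6 lists. Coordinates are those of the deposited lists, whose build is not stated; rn6 is the only rat build in the submitters' processing notes. The gene's peaks lie on the minus strand of chromosome 6, where knockdown 1 had a peak of 4 blocks at chr6:135110241-135111555 (listed p 1e-289), knockdown 2 at chr6:135109913-135110752 (5e-13) and knockdown 3 at chr6:135110572-135111159 (1e-197). Within the same stretch control 3 had a peak of 5 blocks at chr6:135109913-135111555 (1e-151), control 1 at chr6:135110602-135110782 (5.1e-06) and control 2 at chr6:135110482-135110602 (0.0013). Among knockdown lists the lowest p values were in 1 and 3, whose input levels were 1.88 and 63.8 FPKM. The listed p does not measure the amount of ac4C.

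Hsph1 had an ac4C peak in knockdown 3 at chr12:6322668-6322848 (minus strand in these lists, plus in GRCr8; listed p 2e-18), in control 1 at chr12:6322728-6323147 (4e-15) and in control 2 at chr12:6322728-6322998 (1.3e-21). These 3 peaks shared 121 nt, so the same place was listed in both groups, and within the knockdown group only list 3 held it. Knockdown 3 held a further peak at chr12:6324904-6326370 (2e-07). Hspa4 carried a peak of 3 blocks in knockdown 1, knockdown 2 and control 3, which all ended at 38611986 on chromosome 10 (minus strand) and had listed p values of 0.00068, 7.9e-07 and 2.8e-08. Nearer to its 3′ end the lists differed, with chr10:38601624-38601774 in knockdown 1 (1e-284), chr10:38602013-38602193 in knockdown 3 (1e-188) and chr10:38601833-38602013 in control 3 (0.0046).

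Hspa8 had a peak of low listed p in knockdown 3 at chr8:44992333-44993179 (plus strand, 1e-232), and chr8:44991129-44991399 in controls 1 and 2 at the shared p. Hspd1 had peaks in knockdown 1 and 3 and in control 1 and 3, the one of lowest p in knockdown 3 at chr9:61682073-61684746 (1e-33). Hspb1 was listed once, in knockdown 3 at chr12:23839399-23839545 (1.6e-15), and Bag3 once, in control 3 at chr1:199965071-199965191 (0.0022). Among the knockdown lists, list 3 held the most members, 6. Input library knockdown 3 also had the highest level of all 9 genes, and the part of the input level in a listing was not tested.

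In the NAT10 RIP lists 2 members had peaks, Hsph1 and Hspa8, and both had them in all 3 lists, against 361 of the 13450 tested genes (2.68%). Hsph1 had 4, 5 and 1 peaks in RIP libraries 1 to 3. A peak starting at 6332799 on chromosome 12 was in all 3 lists, at chr12:6332799-6334685, chr12:6332799-6334635 and chr12:6332799-6333043, with the authors' log2 enrichment of 1.06, 1.02 and 0.89. Hspa8 had 2, 3 and 2 peaks. One covered chr8:44990114-44990163 in RIP 1 and 3 and chr8:44990089-44990188 in RIP 2 (log2 enrichment 0.90, 0.91 and 0.87), and another began at 44991525 on chromosome 8 in all lists (0.99, 1.08 and 0.96 in RIP 1 to 3). The medians over all peaks were 1.09, 1.07 and 1.09 in RIP 1 to 3. All member peaks in RIP 1 and 3 lay below these medians. In RIP 2 only a peak of Hsph1 (1.14) and a peak of Hspa8 (1.08) lay above the median. The RIP peak of Hsph1 at chr12:6325612-6326411 in RIP 1 shared 134 nt with the ac4C peak of knockdown 3 at chr12:6324904-6326370. Among the 91 other genes 4 had RIP peaks in all lists, namely Calr, Hsp90b1, Pdia4 and Stip1.

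**Figure D5:**
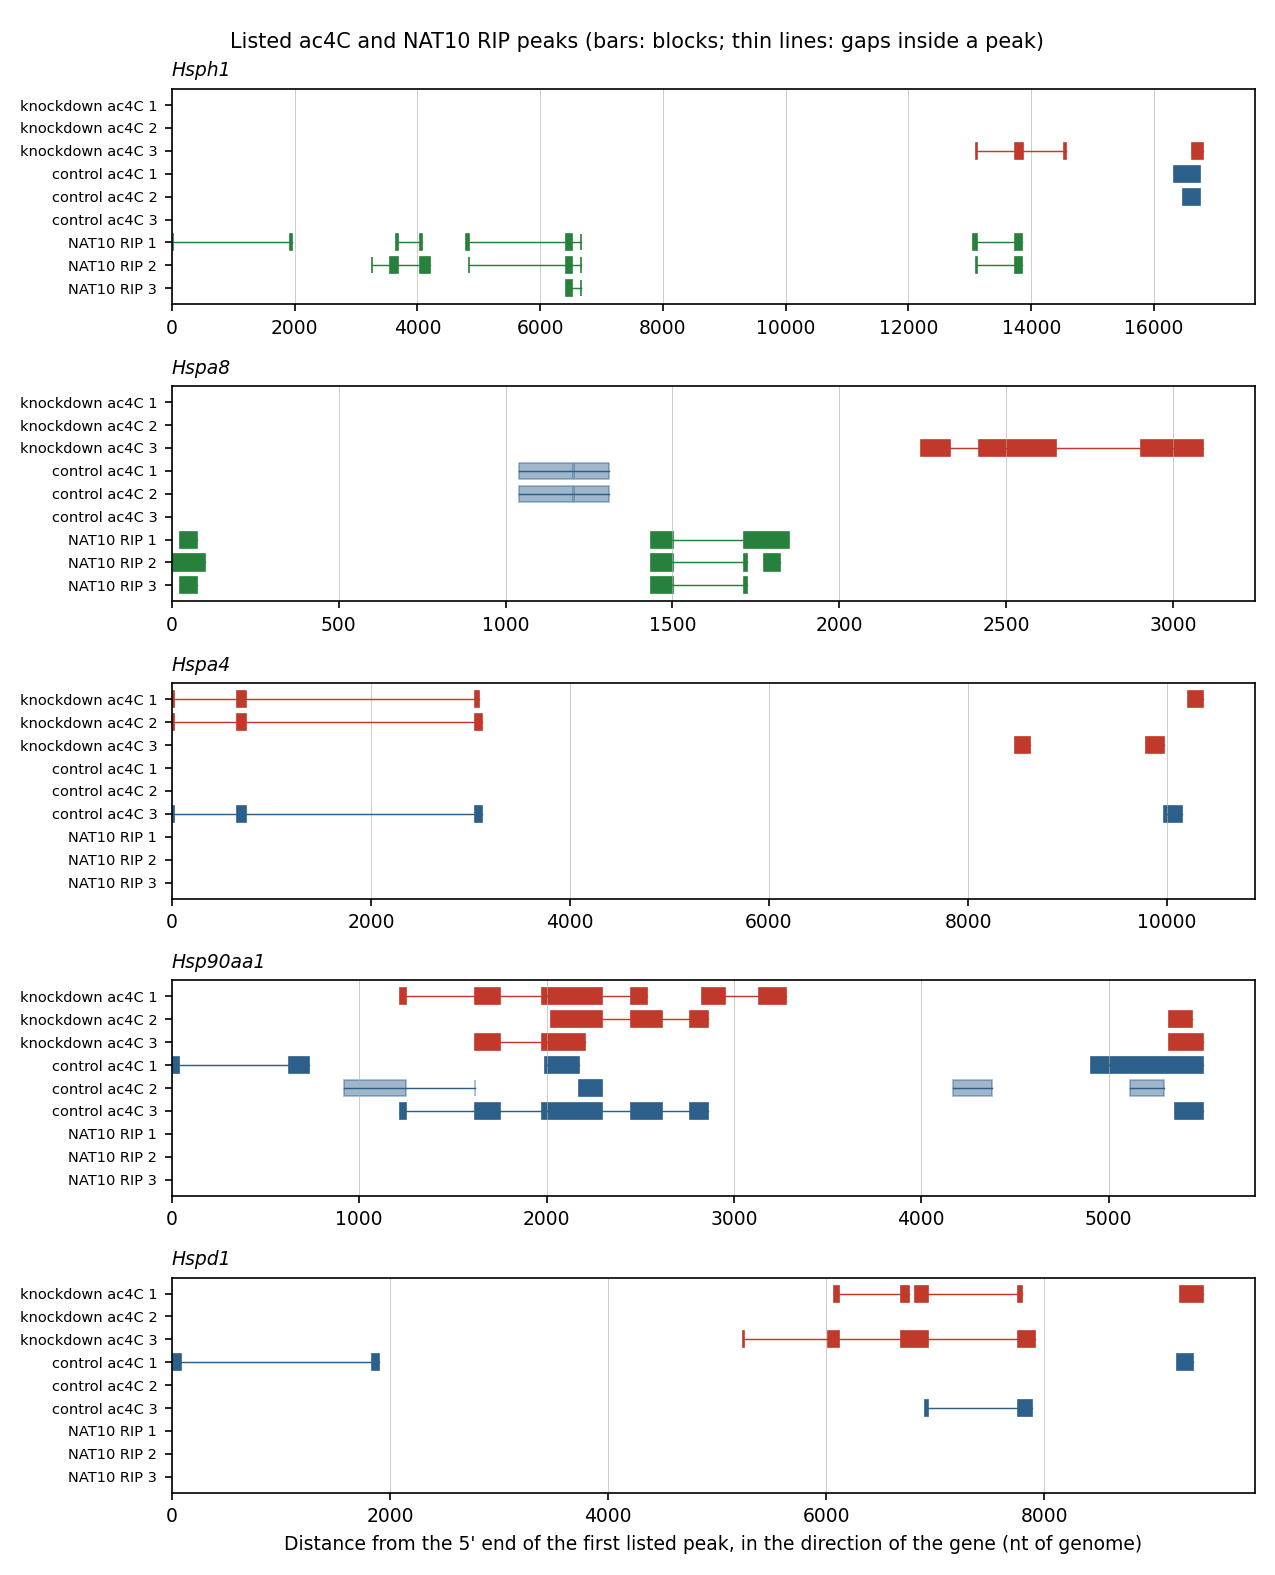
Listed ac4C peaks in knockdown (red) and control (blue) libraries and NAT10 RIP peaks (green) on 5 members, by distance in nt of genome from the 5′ end of the first listed peak; bars are blocks, thin lines gaps within a peak, and pale bars peaks at the shared p. Hsp90aa1 has ac4C peaks in all 6 lists, and RIP peaks stand on Hsph1 and Hspa8 only.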

How the data were processed

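Expression had been measured by RNA sequencing of 6 input libraries. The authors deposited FPKM per Ensembl gene; without roles, DESeq2, HOMER 4.10.4, featureCounts 1.6.3, HISAT2 2.1.0 and cutadapt 2.5 and the builds rn6, GRCh38 and GRCm38 stand in the submitters' processing notes. The ac4C lists deposited by the authors give a p-value per peak, and the NAT10 RIP lists also a log2 enrichment, per the file headers (callers: not given in the sources used here). Whole fragments were recovered from the FPKM for 21401 of 21401 genes above 0 (relative tolerance 2e-08), which gave the depths. The divisors behind the FPKM were not the fragment totals. They equalled a constant (8.17e+06) times the size factor of each library, a median over genes of its fragments relative to all libraries. The main test was limma 3.58.1 with a mean-variance trend in R 4.3.3 on log2(FPKM + 1), a pseudocount of 1 that understates changes of low genes, for 13450 genes with a mean of at least 1 FPKM, with Benjamini-Hochberg adjustment over all of them; it was tested on simulated data. Sample titles gave the group and replicate number. A gene had a peak where a list named it; peaks overlapped if they shared 1 base. Alternatives were another pseudocount, other filters, scalings, quality weights, voom on fragments, a replicate block and leaving out each library; averaging controls 2 and 3 was chosen after seeing the data. The members and lists were chosen with earlier results of these data known. Besides the members, the text names Nat10, Hsf1, Hspa1b, Ubb, the extremes of each list by log2 change (2 at each end, 1 for up to 6 genes), any gene with a 3-unit element or with RIP peaks in all lists, and the nearest profiles; Hsp90ab1 was chosen after its values were seen. Some results are not reported here. The Hspa1a promoter was searched, but its expression was not analysed here, nor were bases under the peaks.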

Additional observations from a re-analysis of the deposited data

How the results depend on the processing

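No gene passed the threshold with another pseudocount, other filters, other scalings, voom, or controls 2 and 3 averaged. Library quality weights gave 335 genes, and leaving out single libraries gave 0 to 1; the cause was not tested. The median log2 change of the 9 genes was 0.24 to 0.76 over leaving out single libraries and 0.68 after quantile normalization, and no member changed sign under any alternative tried. The filters and the replicate block cannot move a member's log2 change. All alternatives stayed on the log2 scale, whereas the ratio of mean FPKM of Hsp90aa1 was 1.36, opposite to its negative log2 change. Same-numbered knockdown and control libraries deviated from their group means with correlations of -0.21, -0.28 and 0.18, and differently numbered ones with -0.29 to 0.41. Deviations from a mean of 3 libraries depend on each other, so these values cannot decide whether the numbers pair the libraries. With a replicate block 0 genes passed and the median of the 9 genes was 0.50. The members with an ac4C peak in all control lists numbered 0 at a listed p under 0.001 and 1 to 3 over leaving out single lists; in all knockdown lists they numbered 2 to 3. With a RIP log2 enrichment of at least 2, 0 members remained listed. The 3 libraries per group, the 21 fragments of Hsp90aa1 in knockdown 2 and the unstated treatment of reads shared between copies limit these values.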
